A study of Homo sapiens with 9 samples.

Results

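The Krüppel-like factors KLF2, KLF3, KLF4, KLF5, KLF6, KLF9, KLF10, KLF11, KLF13 and KLF15 were followed across the 9 arrays of an experiment on progestin and the transcription factor ELF5 in T47D, a progesterone receptor-positive human breast cancer cell line. The members were taken by gene symbol, with the probe set of the highest mean standing for a gene that had more than 1. All 10 were found, among 18417 genes with a probe set of their own; 9 had 1 probe set and KLF13 had 2. All 10 entered the tests, with no filter on low values.

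Each array measured RNA of T47D-pHUSH-Elf5-shRNA cells pooled from 3 wells, and the 9 arrays formed 3 groups of 3. The first group received 10 nM ORG2058, a synthetic progestin that the labels call progesterone, together with 0.1 µg/ml doxycycline, which switches on a short hairpin RNA against ELF5, for 4 days. The second received 10 nM ORG2058 alone for 4 days, and the third received ethanol vehicle, with no stated duration. Cells of every group carried the retroviral hairpin vector and had been maintained in puromycin, and the labels do not say whether the line was a single clone. No group received doxycycline without the progestin or without the hairpin, so an action of doxycycline itself and that of the hairpin cannot be told apart. The design text speaks of independent experiments, and p-values here reflect only how far these arrays differed among themselves.

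Krüppel-like factors are transcription factors that bind GC-rich and CACCC-containing DNA through zinc fingers at the end of the protein, and differ in the parts that recruit activators or repressors. KLF2, KLF4, KLF5 and KLF6 are mostly described as activators or as factors of either sign, KLF3 recruits the CtBP corepressors, and KLF9, KLF10, KLF11 and KLF13 recruit the SIN3A corepressor. Several are known as hormone-responsive genes in other tissues: KLF9 and KLF15 respond to glucocorticoids, and KLF9 is a partner of the progesterone receptor in endometrial cells. KLF10 and KLF11 were first described as early genes of TGF-beta signalling.

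The 5′ flanks are shown for the genes with the largest rises and the largest fall, KLF4, KLF9 and KLF11. RefSeq windows (build GRCh38.p14) were matched for 8 of the 10 genes, 10 windows in all, and none for KLF3 and KLF10 was used here. Each ran over 250 bases before and 50 bases after a transcription start. Capitals mark 3 motifs searched on both strands: AGAACA, the repeated unit of the progesterone receptor element, GGAAG, a core bound by ETS factors such as ELF5, and CACCC, the box bound by the KLF proteins themselves. KLF4 (chr9:107489720-107490019, minus strand) and KLF9 (chr9:70414608-70414907, minus strand) had the largest rises with ORG2058, and KLF11 (chr2:10043579-10043878 and chr2:10043971-10044270, plus strand) had the largest fall.
KLF4: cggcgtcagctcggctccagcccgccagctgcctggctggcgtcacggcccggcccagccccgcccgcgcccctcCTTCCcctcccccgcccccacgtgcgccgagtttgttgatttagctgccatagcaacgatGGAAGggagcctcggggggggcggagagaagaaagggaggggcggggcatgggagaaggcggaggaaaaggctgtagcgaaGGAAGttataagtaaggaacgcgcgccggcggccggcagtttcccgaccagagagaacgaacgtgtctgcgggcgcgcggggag
KLF9: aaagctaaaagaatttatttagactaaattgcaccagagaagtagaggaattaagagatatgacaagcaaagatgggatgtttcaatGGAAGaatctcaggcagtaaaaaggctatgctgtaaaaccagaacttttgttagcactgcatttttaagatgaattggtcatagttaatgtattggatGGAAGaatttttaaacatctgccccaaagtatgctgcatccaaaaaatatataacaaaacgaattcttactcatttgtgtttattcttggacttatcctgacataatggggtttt
KLF11 window 1: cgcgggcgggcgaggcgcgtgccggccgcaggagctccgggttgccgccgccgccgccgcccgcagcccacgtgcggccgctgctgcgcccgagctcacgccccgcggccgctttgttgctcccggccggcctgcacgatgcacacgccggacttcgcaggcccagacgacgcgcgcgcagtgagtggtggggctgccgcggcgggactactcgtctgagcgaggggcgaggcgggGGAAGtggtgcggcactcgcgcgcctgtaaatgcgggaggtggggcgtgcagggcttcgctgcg
KLF11 window 2: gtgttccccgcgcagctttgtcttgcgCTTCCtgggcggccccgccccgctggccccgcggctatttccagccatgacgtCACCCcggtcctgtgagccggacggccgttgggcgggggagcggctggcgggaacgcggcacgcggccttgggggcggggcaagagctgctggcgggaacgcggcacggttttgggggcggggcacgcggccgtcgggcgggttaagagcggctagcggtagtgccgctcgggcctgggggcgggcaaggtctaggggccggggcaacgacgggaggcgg

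GGAAG occurred 3 times in the KLF4 window and 2 times in that of KLF9, and once in each window of KLF11. Over the 8 members with a window used, it was found in 5 of 10 windows, and in 71.9% of the 35116 windows of this length in the table. AGAACA was found in 1 of 10 windows, that of KLF5, against 14.8% of all windows, and CACCC in 4 of 10, against 59.9%. Genes that rose and a gene that fell both held GGAAG, and none of these shares was above that of all windows. The matches describe the letters of the window and not binding. The KLF9 window was 32.7% G and C, and the KLF4 window 69.0%.

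The arrays matched their labels in ELF5, the target of the hairpin, which lay at 10.35 to 10.46 with ORG2058 plus doxycycline, 11.23 to 11.31 with ORG2058 and 10.05 to 10.26 with vehicle (range of probe set values, log2, 3 arrays each). All 9 markers of luminal epithelium lay above the median of all tested probe sets. With ORG2058 against vehicle KRT19 rose by 0.46 on the log2 scale and GATA3, ESR1 and PGR fell by 0.51, 0.50 and 2.28, calls kept in all 17 alternative fits. Also above that median were 4 of 13 markers of basal, fibroblast, endothelial and immune cells. The 13 markers summed on the linear scale to 10.86 to 11.03 with ORG2058 plus doxycycline, 10.91 to 10.98 with ORG2058 and 10.74 to 10.97 with vehicle (log2 of the sum); none had a mean below 0. With ORG2058 against vehicle, 3 of these 13 were called higher (KRT5, PECAM1 and CDH5, by 0.61, 0.34 and 0.30 on the log2 scale) and 1 lower (COL1A1, -0.42), and their part in the KLF changes was not tested. In this comparison 13.4% of all probe sets were called higher and 15.6% lower. The calls of KRT5, PECAM1, CDH5 and COL1A1 were lost in 8, 5, 6 and 1 of 17 alternative fits. With ORG2058 plus doxycycline against vehicle 2 of the 13 were called higher, KRT5 by 1.03 and CDH5 by 0.28. The call of CDH5 was lost in 9 of 17 alternative fits. Of all probe sets 15.6% were called higher there and 12.5% lower. ORG2058 replicate 3 stood apart in having 97 values below 0 among named probe sets, against 14 to 41 on each other array. Median probe set values lay between 7.19 and 7.28. With whole cultures as samples, a change in the share of cells that express a gene and a change in RNA per cell cannot be told apart.

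ORG2058 against vehicle asks which KLF genes respond to progestin. KLF4 and KLF9 rose most, 6.25-fold and 5.05-fold, and KLF3, KLF6 and KLF13 rose by 1.52-fold to 1.88-fold. KLF10 and KLF11 fell, and KLF2, KLF5 and KLF15 did not pass the test. In all 5 of 10 members were called higher and 2 lower at an adjusted p of 0.05 (limma), where 13.4% and 15.6% of the 21214 tested probe sets were called in these directions and 29.0% in either. These shares include dim probe sets. Without the dimmest 25%, 3038 of 15910 probe sets were called higher and 3496 lower. A rise of at least 2-fold was called for 2 of 10 members and for 2.58% of all probe sets. The median log2 change of the members was 0.47, beside 0.02 over all probe sets.

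**Figure D1:**
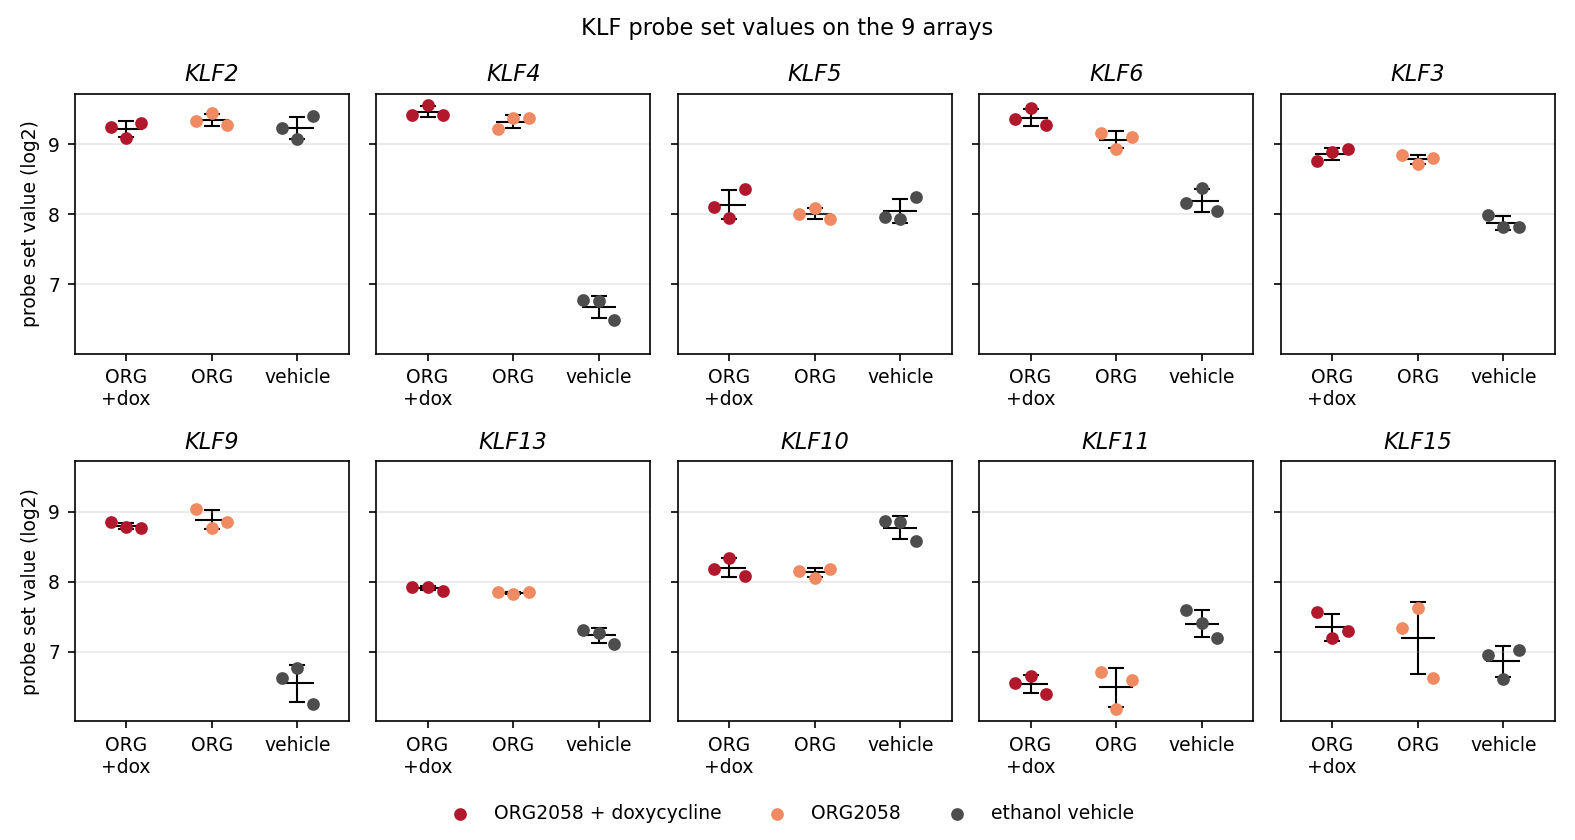
Probe set values (log2, vertical axis) of the 10 KLF genes, 1 panel per gene, with 3 points per group for ORG2058 plus doxycycline (ORG +dox), ORG2058 (ORG) and vehicle; bars are mean ± SD. KLF4 and KLF9 lie at 8.77 to 9.56 on every array with ORG2058 and at 6.26 to 6.78 on every vehicle array, and KLF10 and KLF11 are higher with vehicle.

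KLF4 belongs to the factors described as activators or as factors of either sign. It drives terminal differentiation of skin and gut epithelium and is one of the reprogramming factors. Its values were 9.21, 9.38 and 9.38 with ORG2058 and 6.78, 6.77 and 6.49 with vehicle (log2). Every ORG2058 array lay above every vehicle array, with a gap of 2.44. The log2 change was 2.64 (SE 0.10, 95% interval 2.42 to 2.87, adjusted p = 8.24e-07), and 117 of the 21214 probe sets had a higher one.

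KLF6, a widely expressed factor described as a tumour suppressor in prostate, had values of 9.16, 8.93 and 9.11 with ORG2058 and of 8.16, 8.37 and 8.05 with vehicle. These groups were also apart, by 0.56, and the rise was 1.83-fold (log2 change 0.87, SE 0.11, adjusted p = 0.000581). KLF2 and KLF5, also described as activators or as factors of either sign, gave no call. KLF2, a factor of quiescent endothelium and T cells, was at 9.33, 9.45 and 9.28 with ORG2058 and at 9.23, 9.08 and 9.40 with vehicle. KLF5, which marks proliferating basal cells of epithelia, was at 8.01, 8.10 and 7.93 with ORG2058 and at 7.96, 7.93 and 8.24 with vehicle. For both genes the groups overlapped. The 95% intervals of the log2 change ran from -0.12 to 0.35 for KLF2 (adjusted p = 0.470) and from -0.33 to 0.26 for KLF5 (adjusted p = 0.874), which leave out a change of 2-fold in either direction.

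The CtBP-binding repressor KLF3 was at 8.84, 8.72 and 8.80 with ORG2058 and at 7.99, 7.83 and 7.82 with vehicle. All 3 ORG2058 arrays exceeded all 3 vehicle arrays, and the rise was 1.88-fold (log2 change 0.91, SE 0.08, adjusted p = 8.02e-05).

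The SIN3A-binding factors split into a pair that rose and a pair that fell. KLF9 had values of 9.04, 8.77 and 8.85 with ORG2058 and of 6.62, 6.77 and 6.26 with vehicle. The groups were separated by 2.00, and the vehicle arrays varied more (SD 0.26, n = 3) than the ORG2058 arrays (SD 0.14, n = 3). Its log2 change was 2.33 (SE 0.13, 95% interval 2.03 to 2.64, adjusted p = 7.28e-06), with 140 probe sets above it. KLF13, known for control of the chemokine gene CCL5 in T cells, rose 1.52-fold: it was at 7.85, 7.83 and 7.86 with ORG2058, against 7.31, 7.28 and 7.12 with vehicle (log2 change 0.61, SE 0.07, adjusted p = 0.000356). This is its brighter probe set. On the dimmer one the values were 5.86, 5.90 and 4.95 with ORG2058 and 4.999, 5.32 and 5.03 with vehicle, so that ORG2058 replicate 3 lay below every vehicle array, and the change was not called (0.45, adjusted p = 0.222).

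KLF10, which slows epithelial growth downstream of TGF-beta, had values of 8.15, 8.06 and 8.19 with ORG2058 and of 8.87, 8.86 and 8.58 with vehicle. It was lower on every ORG2058 array, 1.55-fold on average (log2 change -0.64, SE 0.11, adjusted p = 0.00249). KLF11, its close relative, had values of 6.71, 6.18 and 6.60 with ORG2058, against 7.59, 7.41 and 7.21 with vehicle. The groups did not overlap, and the fall was 1.87-fold (log2 change -0.91, SE 0.16, adjusted p = 0.0031).

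KLF15, a glucocorticoid-induced regulator of amino acid and glucose metabolism in liver and muscle, had values of 7.35, 7.63 and 6.62 with ORG2058 and of 6.96, 6.62 and 7.02 with vehicle. ORG2058 replicates 1 and 2 lay above all vehicle arrays and replicate 3, the array with most values below 0, beside the lowest of them. The change was 0.33 (95% interval -0.23 to 0.90, adjusted p = 0.365), and 0.62 without that replicate, with an adjusted p of 0.0323. Over all members, the ORG2058 and vehicle arrays did not overlap for 7 of 10 genes, the same 7 that were called, where 42.3% of probe sets did not overlap. An exact permutation test of 3 arrays against 3 cannot go below 0.1, two-sided, and gave 0.1 for each of these 7.

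**Figure D2:**
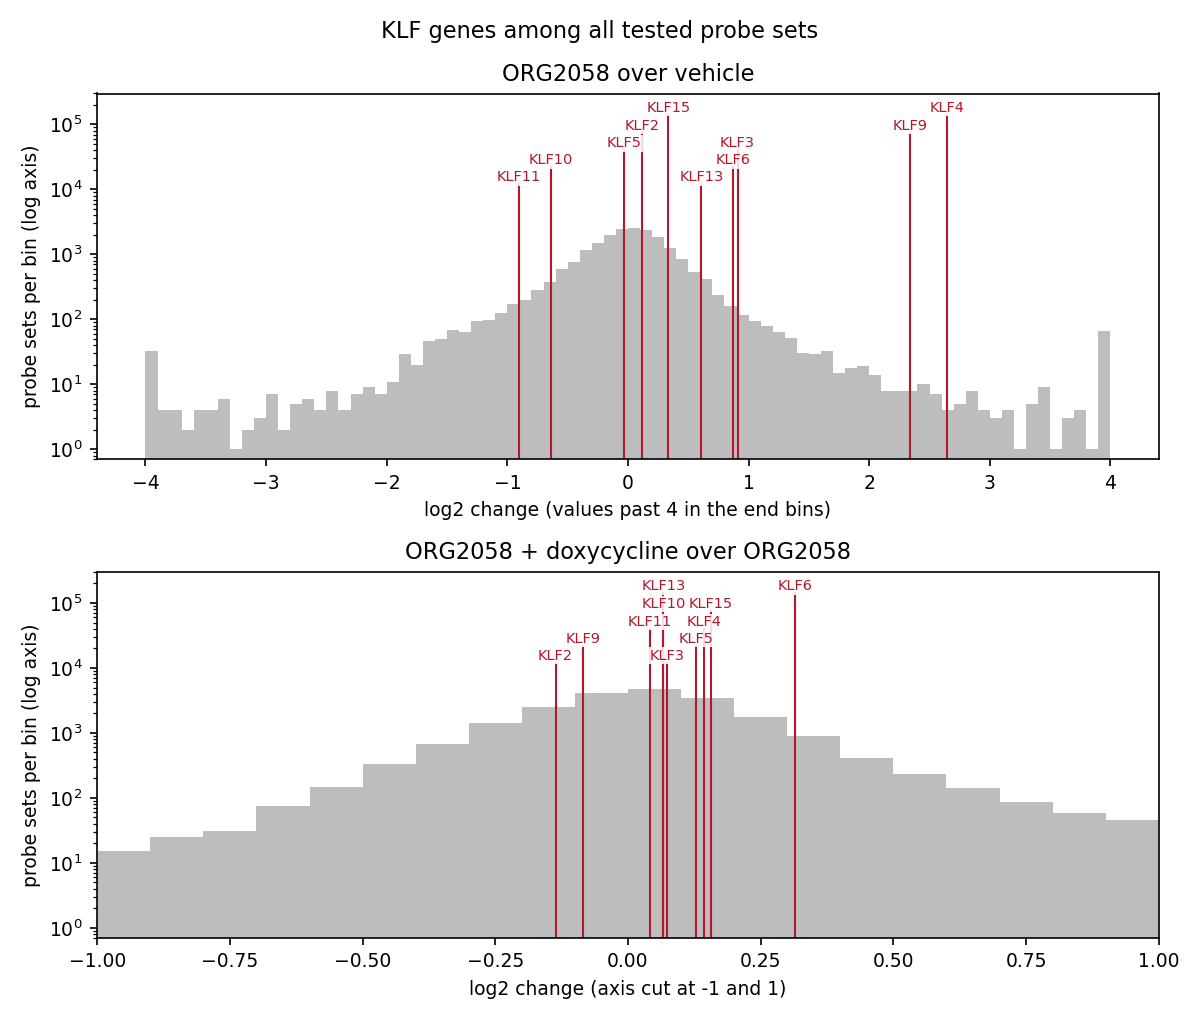
Numbers of probe sets (grey bars, logarithmic vertical axis) by log2 change for ORG2058 over vehicle (top) and ORG2058 plus doxycycline over ORG2058 (bottom, horizontal axis cut at -1 and 1), with the 10 KLF genes as red lines whose height has no meaning. KLF4 and KLF9 lie far to the right at 2.64 and 2.33 in the top panel, and all 10 genes lie between -0.14 and 0.31 in the bottom one.

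Adding doxycycline to ORG2058 asks whether KLF levels differ once the hairpin is switched on. ELF5 itself went from a mean of 11.28 to 10.42 (log2), still above the 10.17 of vehicle. Dependence on ELF5 as such was not tested, since ELF5 remained and no group had doxycycline alone. None of the 10 members passed the test (limma, adjusted p of 0.05), where 4 of 21214 probe sets did (0.0189%). At an unadjusted p under 0.05, 1 member passed, KLF6, where 14.0% of probe sets did. The members' log2 changes lay between -0.14 and 0.31, with a median of 0.07 beside 0.03 over all probe sets, and 8 of 10 were positive. With the median over all probe sets also above 0, most probe sets had a positive change too.

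KLF6 had the largest change of the members. It was at 9.36, 9.51 and 9.27 with doxycycline added and at 9.16, 8.93 and 9.11 with ORG2058 alone. The 3 arrays with doxycycline were the higher ones, by a gap of 0.11. The log2 change was 0.31 (SE 0.11, 95% interval 0.06 to 0.57, unadjusted p = 0.0221, adjusted p = 0.281 in limma).

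KLF4 was at 9.43, 9.56 and 9.41 with doxycycline added, against 9.21, 9.38 and 9.38 with ORG2058 alone. KLF13 was at 7.92, 7.93 and 7.88, against 7.85, 7.83 and 7.86 with ORG2058 alone. Both were higher on each array with doxycycline, by gaps of 0.04 and 0.02, and their log2 changes of 0.14 and 0.07 were not called (adjusted p = 0.570 and 0.731). These 2 genes and KLF6 make 3 of 10 members without overlap between the groups, where 21.2% of probe sets had none.

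For the other genes that had risen with ORG2058, KLF9 was at 8.85, 8.79 and 8.77 with doxycycline added and KLF3 at 8.76, 8.89 and 8.93, values that overlapped those of ORG2058 alone. The 95% interval of the log2 change ran from -0.39 to 0.22 for KLF9, from -0.11 to 0.26 for KLF3, from -0.08 to 0.37 for KLF4 and from -0.10 to 0.23 for KLF13. A loss of the whole rise seen with ORG2058 lies outside each of these intervals, while a smaller change is within them.

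KLF10 was at 8.18, 8.35 and 8.08 with doxycycline added and KLF11 at 6.56, 6.65 and 6.40. The intervals of the difference from ORG2058 alone were -0.18 to 0.31 for KLF10 and -0.32 to 0.40 for KLF11. KLF2 was at 9.25, 9.08 and 9.31 with doxycycline added, KLF5 at 8.11, 7.95 and 8.36, and KLF15 at 7.57, 7.20 and 7.30. The widest interval was that of KLF15, -0.41 to 0.72, where ORG2058 replicate 3 is again the lowest array; the groups overlapped for all 5 of these genes.

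Set against vehicle, the arrays with ORG2058 plus doxycycline form a comparison that shares its vehicle arrays with the comparison above. The test called 5 members higher (KLF3, KLF4, KLF6, KLF9 and KLF13) and 2 lower (KLF10 and KLF11), where 15.6% and 12.5% of probe sets were called in these directions and 28.1% in either. Without the dimmest 25%, 3453 of 15910 probe sets were called higher and 2811 lower. KLF4 had a log2 change of 2.79 and KLF9 of 2.25 (SE 0.10 and 0.13, adjusted p = 5.89e-07 and 7.35e-06). KLF6 was 2.28-fold higher (1.19, SE 0.11, adjusted p = 9.52e-05) and KLF3 1.97-fold (0.98, SE 0.08, adjusted p = 4.77e-05). KLF13 was at 0.68, KLF10 at -0.57 and KLF11 at -0.87. KLF15 was higher on each of the 3 arrays than on any vehicle array, by a gap of 0.18, and was not called (log2 change 0.49, SE 0.25, adjusted p = 0.194); without ORG2058 replicate 3, which enters only the estimate of the spread, that p was 0.0469.

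**Figure D3:**
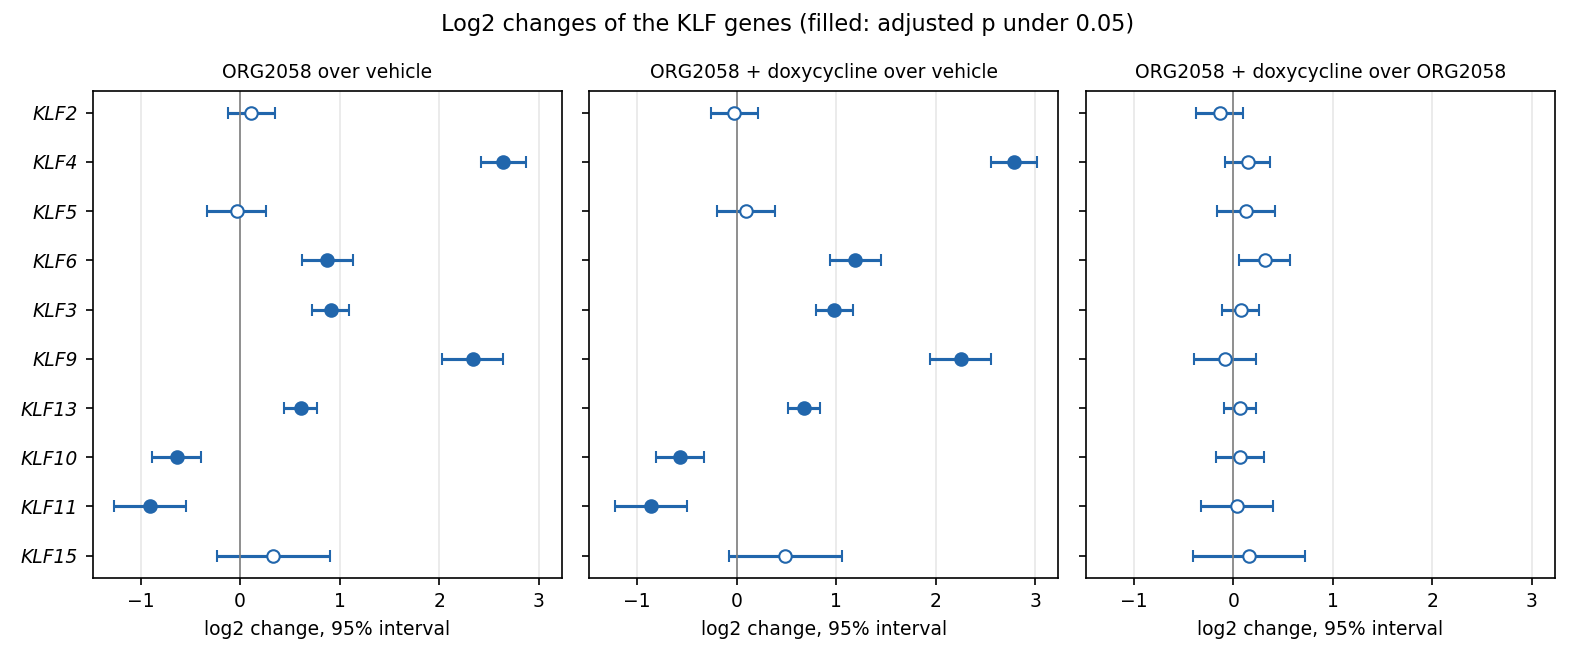
Log2 changes (horizontal axis) of the 10 KLF genes with 95% intervals from limma for ORG2058 over vehicle, ORG2058 plus doxycycline over vehicle and ORG2058 plus doxycycline over ORG2058; filled points have an adjusted p under 0.05. KLF4 and KLF9 have the largest changes against vehicle, and none of the 10 genes is filled for doxycycline added to ORG2058; both comparisons with vehicle share its arrays.

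KLF3, KLF4, KLF6, KLF9 and KLF13 had their higher levels in both groups with ORG2058 and the lower one with vehicle, and KLF10 and KLF11 the reverse. For all 7, ORG2058 with and without doxycycline were the neighbours that the test did not separate. Expression profiles over the 9 arrays were compared with those of 13873 other genes, as a description, since all genes share the same arrays and the same 3 groups. Nearest to KLF4 were ARHGEF37 and IFIT3 (Pearson r = 0.999 each), and nearest to KLF9 were IFI27L1 and SLC44A4 (0.999 and 0.998). KLF3 was nearest to RPS6KL1 and CFB (0.997 each), KLF6 to GABARAP and ERAP1 (0.997 and 0.996) and KLF13 to HERC6 and MFSD6 (0.998 each). Of the genes that fell, KLF10 was nearest to PAXIP1 and TAF6L (0.995 and 0.993) and KLF11 to PPARD and PRDX1 (0.993 and 0.989).

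Of the other members of the family, 15 of 16 listed KLF and SP factors were measured. With ORG2058 against vehicle 1 was called higher and 1 lower, where 13.4% and 15.6% of all probe sets were, with a median change of 0.06 beside 0.02 over all probe sets. SP6, a factor of tooth and skin epithelium, was at 7.12 ± 0.11 with ORG2058 and 4.97 ± 0.13 with vehicle (log2, SD, n = 3 each), a change of 2.15 (SE 0.09, adjusted p = 1.27e-06). SP4 fell by 0.91 (SE 0.17, adjusted p = 0.00492). The count of lower genes was 2 without vehicle replicate 3 and 2 without ORG2058 replicate 3. Array weights, quantile normalization and leaving out dim probe sets also gave 2. So did 16 added to the linear value, and a variance trend with robust estimation. Each of the remaining alternative fits gave 1. KLF1, KLF7, KLF8, KLF12, KLF14, KLF16 and KLF17 were not called. For KLF16 the change was -0.33 (adjusted p = 0.0612), and its ORG2058 and vehicle arrays did not overlap. With doxycycline added to ORG2058, 0 of 15 were called; SP1 had the smallest p (change 0.26, adjusted p = 0.160).

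**Figure D4:**
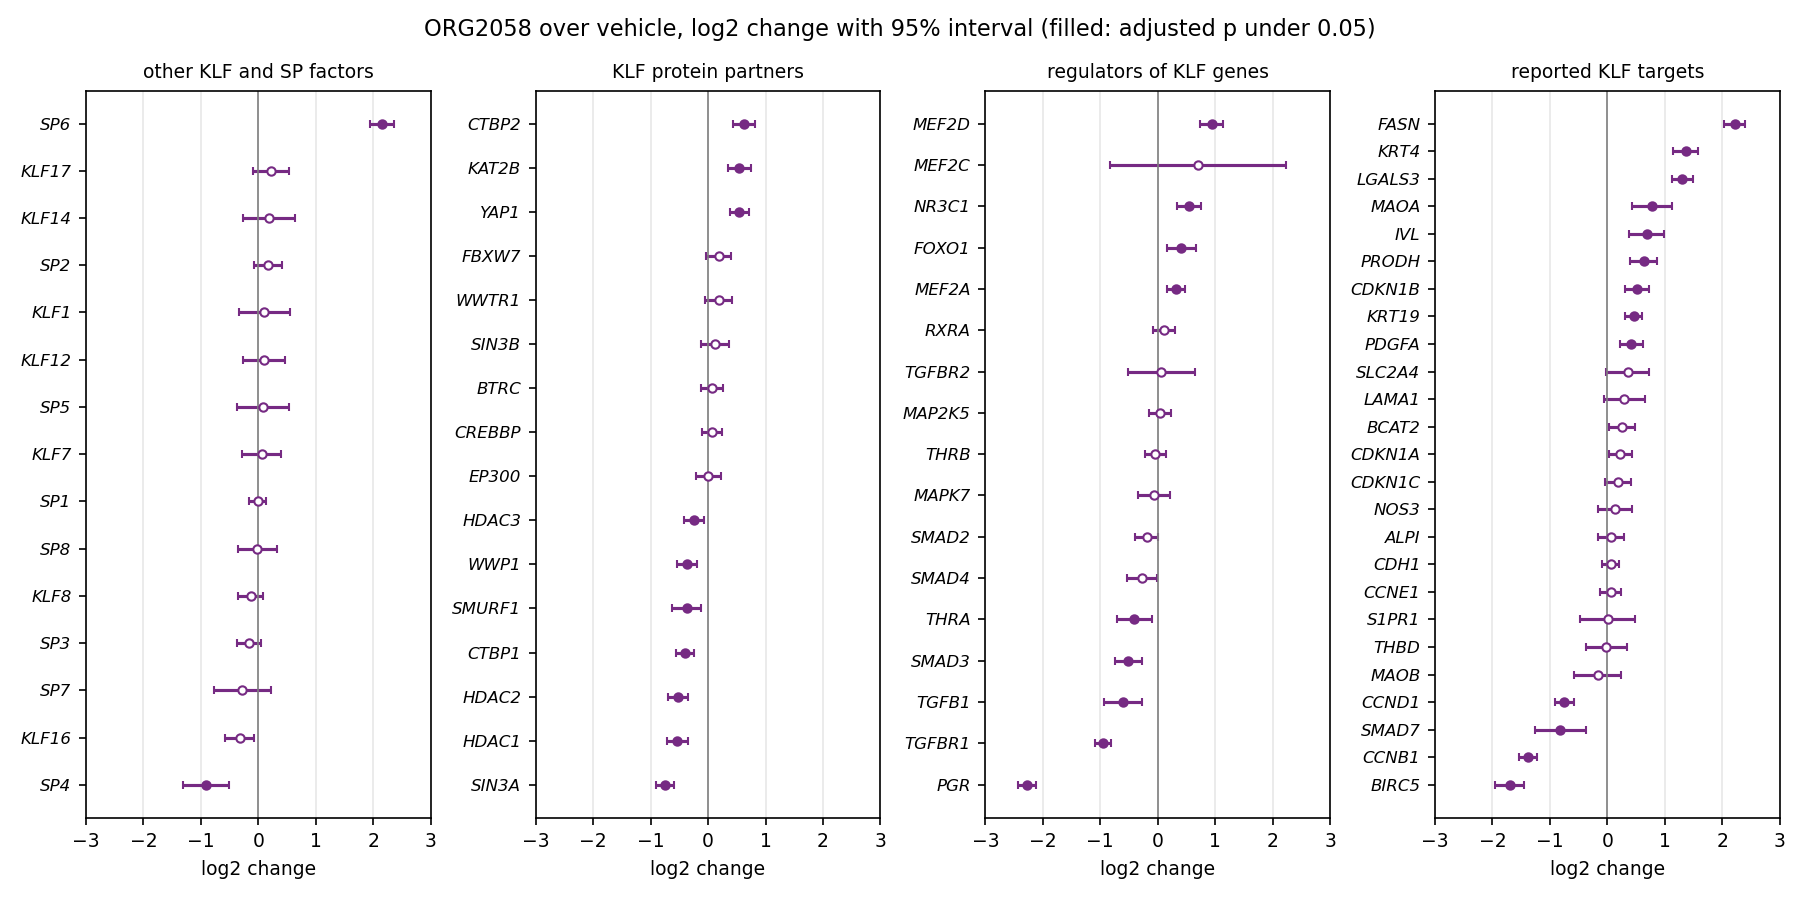
Log2 changes (horizontal axis) with 95% intervals for ORG2058 over vehicle in 4 gene lists, sorted by change within each list; filled points have an adjusted p under 0.05. SP6 alone of the other KLF and SP factors is filled on the right, at 2.15, and PGR and TGFBR1 are the lowest of the regulators, at -2.28 and -0.95.

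Genes for proteins that act with KLF factors were called higher in 3 and lower in 7 of 16 cases with ORG2058 against vehicle, where 13.4% and 15.6% of all probe sets were (median 0.04, beside 0.02 over all). Over the alternative fits the falls numbered 5 to 7 and the rises 3 or 4. Of the 16 genes, 15 lay above the median level of all tested probe sets, whose shares include dim ones. SIN3A, the corepressor bound by KLF9, KLF10, KLF11 and KLF13, fell to 8.40 ± 0.050 with ORG2058, against 9.15 ± 0.045 with vehicle (log2 change -0.75, SE 0.07, adjusted p = 7.3e-05). The histone deacetylase HDAC2 of the same complex fell by 0.52 on the log2 scale (SE 0.07). CTBP2, a corepressor bound by KLF3, rose by 0.62 (SE 0.08), and YAP1, a coactivator known to stabilise KLF5 protein, by 0.54 (SE 0.07). Their adjusted p values lay between 0.000659 and 0.000977. CTBP1, the other CtBP corepressor in the list, went the other way and fell by 0.40 (SE 0.07, adjusted p = 0.00327).

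Of 17 measured regulators of KLF genes 4 rose and 5 fell, beside 13.4% and 15.6% of all probe sets (median -0.04, against 0.02 over all). MEF2D, of a family that acts on the KLF2 and KLF4 genes downstream of the kinase ERK5, rose by 0.94 (SE 0.09, adjusted p = 9.15e-05), and the glucocorticoid receptor NR3C1 by 0.54 (SE 0.09, adjusted p = 0.00267). TGFBR1, a receptor of TGF-beta, which induces KLF10 and KLF11, fell to 9.62 ± 0.057 with ORG2058, against 10.58 ± 0.021 with vehicle (change -0.95, SE 0.06, adjusted p = 1.65e-05). The progesterone receptor PGR fell by 2.28 (SE 0.07, adjusted p = 2.96e-07). Without vehicle replicate 1 the list held 3 rises and 3 falls. With array weights it held 4 and 7, and without ORG2058 replicate 3 it held 5 and 5. Over all 21214 probe sets these fits called, in the same order, 2256 and 2376, 4683 and 4819, and 2449 and 2913.

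Of 25 genes reported as direct KLF targets in other cells, 9 rose and 4 fell, with a median of 0.22 beside 0.02 over all probe sets. Over all probe sets 13.4% were called higher and 15.6% lower, so the falls were near that share. FASN, fatty acid synthase, rose by 2.21 and LGALS3, galectin-3, by 1.31 (SE 0.08 each, adjusted p = 7.78e-07 and 1.27e-05). The mitotic cyclin CCNB1 and the apoptosis inhibitor BIRC5 fell by 1.38 and 1.70 (SE 0.07 and 0.11, adjusted p = 3.75e-06 and 1.48e-05). With doxycycline added to ORG2058, none of the partners, regulators or targets was called (limma); the smallest p values belonged to EP300 (change 0.50, adjusted p = 0.120), PGR (0.33, adjusted p = 0.132) and CCNE1 (-0.38, adjusted p = 0.138). With a variance trend and robust estimation 3 of 16 partners, 1 of 17 regulators and 1 of 15 other family members were called higher, SP1 being the last, and of 25 targets 1 higher and 2 lower. Without the dimmest 25% of probe sets 2 of 16 partners were called higher, EP300 among them. Over all probe sets, the first of these fits called 478 of 21214 higher and 52 lower. The second called 140 of 15910 higher and 18 lower. The first also called 3 of 9 luminal markers higher.

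Compared with vehicle, the arrays with ORG2058 plus doxycycline had 2 rises and 2 falls among the other KLF and SP factors, 6 and 4 among the partners, 4 and 4 among the regulators and 10 and 4 among the targets. Over all probe sets 15.6% were called higher and 12.5% lower in this comparison. SP6 was at 2.36 (SE 0.09), and SP1 (0.25), SP4 (-0.59) and KLF16 (-0.37) were also called, at adjusted p values of 0.0203, 0.0346 and 0.0384. Each of these 3 calls was lost with a replicate block and without some single arrays, that of SP1 also with 2 groups fitted and those of SP4 and KLF16 with all probe sets of the table. SP1 lost it without vehicle replicate 2 or either of replicates 2 and 3 with doxycycline (adjusted p up to 0.0622). SP4 lost it without any vehicle array or without replicates 1 or 3 with doxycycline (up to 0.110), and KLF16 without vehicle replicates 1 or 2, ORG2058 replicate 1 or replicates 1 or 3 with doxycycline (up to 0.130). Among the partners YAP1 and KAT2B rose by 0.76 and 0.72, and among the regulators MEF2D by 1.10.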

How the data were processed

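The authors deposited 1 log2 value per probe set and array of the Affymetrix human gene array; log2 was inferred from their range, with a highest value of 14.0 to 14.2 per array. Per the submitters' processing notes, the software comprised limma, Affymetrix Expression Console, PLIER and Affymetrix Power Tools; their roles, the background correction and the normalization are not given in the sources used here. Linear values near 0 become strongly negative in log2. Of 33297 probe sets, 19460 had 1 gene symbol, 1754 several and 12083 none in the platform annotation; genes were named only from 1 symbol. Of these 19429 matched RefSeq (GRCh38.p14) by gene identifier, which changed 0 symbols.

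The 21214 probe sets with a symbol were fitted together with limma 3.58.1 (R 4.3.3), with 1 mean per group over 9 arrays, eBayes and Benjamini-Hochberg adjustment, across all genes. All single-gene adjusted p values come from it unless another setting is named. SE and the 95% interval are those of the log2 change; the SE had a median of 0.12, and the number of arrays limits the precision. The fit was also run on simulated data, in which far fewer probe sets changed than were called here against vehicle. That run does not show how the fit behaves with as many changes.

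The members, lists, motifs and alternatives were chosen with earlier results of these data known, and the lists were written from general knowledge. Named are all members, per list and comparison up to 4 called genes with the smallest p (or 1 where none was called), and for each called member the 2 genes of the highest Pearson r among those above the 25th percentile of level. Alternatives were quantile normalization, no dim probe sets, a variance trend with robust estimation, array weights, 16 added to the linear value, 2-group fits, a replicate block, all probe sets, each array left out, and the other KLF13 probe set.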

Additional observations from a re-analysis of the deposited data

How the results depend on the processing

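The 7 members called with ORG2058 against vehicle kept their call and direction in every one of the 17 alternative fits on the brighter probe sets, and so did the 7 called with ORG2058 plus doxycycline against vehicle; 8 were called in either comparison without ORG2058 replicate 3, and in the second with array weights, the eighth being KLF15. With doxycycline added to ORG2058, 0 members were called in any of the 17; the lowest adjusted p was 0.0805, for KLF6. Of 513 member changes recomputed, 495 kept direction and side of the threshold. The dimmer KLF13 probe set gave no call against vehicle (0.45 without and 0.12 with doxycycline) and a change of -0.33 for doxycycline added to ORG2058.

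Some small changes that were called in no fit turned their sign. With array weights KLF5 changed by 0.047 for ORG2058 against vehicle, KLF11 by -0.024 for doxycycline added, and KLF2 by 0.016 for both against vehicle. Over the fits without 1 array, KLF5 ranged from -0.092 to 0.064 for ORG2058 against vehicle and from -0.019 to 0.19 for both against vehicle, and KLF2 from -0.10 to 0.059 for both against vehicle. For doxycycline added, KLF10 ranged from -0.0054 to 0.13, KLF11 from -0.12 to 0.15 and KLF15 from -0.13 to 0.37. The cause was not tested.

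Same-numbered arrays of different groups had correlations of deviations from -0.28 to 0.42 over 9 pairs, and differently numbered ones from -0.45 to 0.28 over 18. The highest, 0.42 and 0.37, were of ORG2058 plus doxycycline and vehicle replicates 2 and 3, but 6 of the 9 were below 0, so the numbers were not taken as pairs. A replicate block left 7, 0 and 7 members called, as without it, ended the calls of SP1, SP4 and KLF16 for ORG2058 plus doxycycline against vehicle, and gave 5378, 0 and 5240 probe sets in place of 6161, 4 and 5953. With doxycycline added, the count over all probe sets was 158 without the dimmest 25%, 530 with a variance trend and robust estimation, and 0 with 2 groups fitted; 8 with array weights, 12 with all probe sets and 15 with 16 added to the linear value; it was 0 to 2 without 1 array. Array weights gave 9502 in place of 6161 for ORG2058 against vehicle.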
